A study of Mus musculus with 18 samples.

Results

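A set of 10 genes of the brain's coverings and of fibroblasts were followed in whole cortex and striatum: Islr, Mgp, Slc6a13, Col1a1, Col1a2, Col3a1, Dcn, Lum, Igf2 and Ptgds. The genes were chosen by name with earlier results of these data known, so counts over them are descriptions and no score over them was tested. The array assigned 13 of its 45037 non-control probe sets to these 10 genes alone. Of these, 10 probe sets of 8 genes were bright enough to be tested. The 27022 probe sets tested in all were kept by brightness alone, whether or not they were assigned to a gene, and covered 11974 named genes.

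The samples came from mice aged 6 weeks, 3 labelled CTRL and 3 carrying the transgene TgCPEB4∆4, a form of the cytoplasmic polyadenylation protein CPEB4 that lacks a microexon. Cortex and striatum of a mouse were pooled, and 3 RNA preparations were measured per mouse on 18 arrays: total RNA (INPUT), RNA released from poly(U) agarose at 25% formamide, which is enriched for short poly(A) tails (WASH), and RNA released at 90% formamide, which is enriched for long tails (ELUTED). From each preparation 5 ng was amplified over 21 cycles and 8 µg of product was hybridised, so a value is a transcript's share of its preparation and not an amount. Nothing in the sources used here names the promoter of the transgene, the alleles carried by the CTRL mice or the number of founder lines, or says whether the meninges were peeled off.

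The meninges are the layered sheets that wrap the brain. Their fibroblasts secrete fibrillar collagens and small leucine-rich proteoglycans, make insulin-like growth factor 2 and retinoic acid, and carry transporters that clear solutes from the cerebrospinal fluid. Related fibroblasts line the larger vessels that enter the tissue. Most neurons and glia make little collagen, so the collagen genes among the members mainly report such lining cells in dissected brain. Other members have further sources. Vascular smooth muscle cells also make Mgp, the choroid plexus also makes Igf2 and Ptgds, and oligodendrocytes also express Ptgds. In bulk tissue, fewer cells of a type and less RNA per cell cannot be told apart.

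Promoter sequence from RefSeq (GRCm38.p6) was available for 6 of the 10 genes, with 11 annotated starts, and 1 window of 30 bases per gene is shown to place common promoter elements near the starts of these genes. Each is read 5′ to 3′ on the gene's strand, and capitals mark the motif match nearest to a start. The motifs, picked after the sequences had been seen, were the TATA box letters TATAAA and the shorter ATAAA within them, the CCAAT box and the GC box GGGCGG, all searched on both strands of the 250 bases before each start.
Col3a1, chr1:45311409-45311438, plus strand: actaatgcatgtTATAAAcatatgcatagg
Col1a2, chr6:4505496-4505525, plus strand: aaaaagaatggaaCCAATttaagaagcccc
Islr, chr9:58158745-58158774, minus strand, ATAAA on the opposite strand: aggtcctagctggTTTATttaggcagctgc
Igf2, the last of its 4 annotated starts, chr7:142657497-142657526, minus strand: gggaggagccactcagacATAAAaagcgga
Slc6a13, chr6:121300226-121300255, plus strand: acatgcaccacaGGGCGGtctccagccacg
Ptgds, chr2:25469762-25469791, minus strand: ccaagcctgactcATAAAtagggggtctcc
The match lay 24 bases before the start in Ptgds, 7 in Igf2, 44 in Slc6a13, 104 in Col1a2, 111 in Col3a1 and 202 in Islr. TATAAA was found before 1 of the 11 starts, against 12.4% of 32851 mouse promoter windows of the same length, and ATAAA, which TATAAA contains, before 5 of 11 against 37.3%. CCAAT was found before 3 of 11 starts against 33.8%, and GGGCGG before 4 of 11 against 32.7%. No motif was shared by all 6 genes. A match is a string of letters and not a measured binding site. Mgp, Col1a1, Dcn and Lum had no entry.

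All values are RMA log2 expression. The brightest of 23 nonspecific control probe sets, which should hybridise to no mouse transcript, read 7.07 to 7.52 on the INPUT arrays, 5.43 to 6.03 on the WASH arrays and 5.53 to 7.30 on the ELUTED arrays. A value under that level may not be well above background, and is called near background below. The level is strict, since it takes the brightest of the 23 controls. On the INPUT arrays it lay above the array medians of 6.489 to 6.525. The background of single probe sets was not estimated. Col1a2, which encodes the second chain of type I collagen, read 4.83 to 4.94 in INPUT on its single probe set, and Lum, which encodes the proteoglycan lumican, read 4.43 to 4.62. Neither exceeded the nonspecific control on any of the 18 arrays, nor did the weaker of the probe sets for Col3a1, which read 4.03 to 4.13 in INPUT. These 3 probe sets were not tested, so 2 of the 5 genes taken as defining markers of meningeal fibroblasts (Col1a2 and Lum) had no usable signal, while Col1a1, Dcn and Slc6a13 did.

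In total RNA, all 10 tested member probe sets had a higher mean in the transgenic mice, by 0.18 to 1.34 on the log2 scale, against 54.2% of all probe sets tested. None passed limma's test after Benjamini-Hochberg adjustment over all probe sets (adjusted p 0.423 to 0.52), and 0% of all 27022 did. At an unadjusted p under 0.05, limma listed 7 of the 10 member probe sets and 2935 probe sets in all (10.9%). In 8 of the 10, all 3 transgenic mice lay above all 3 control mice, against 11.1% of all probe sets. With 1 probe set per gene, the median difference of the 8 genes was 0.65. The control mice lay close together for most members and the transgenic mice were spread out, as the values per mouse below show.

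**Figure D1:**
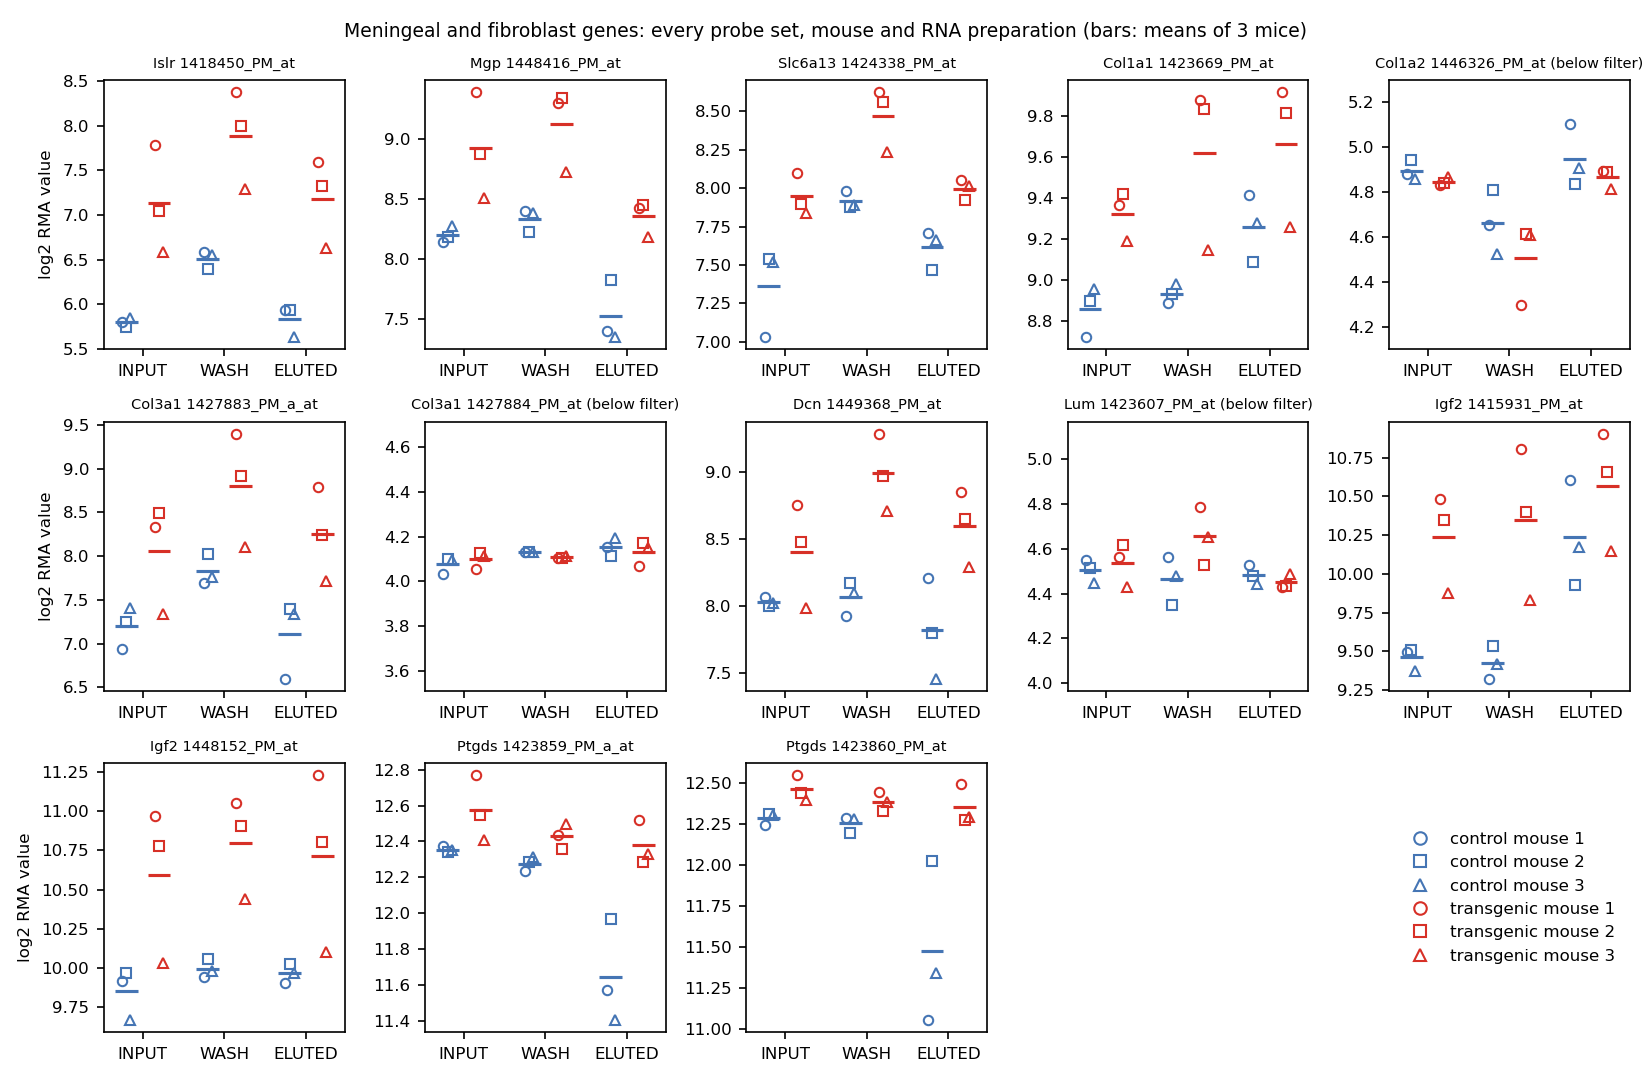
Log2 expression (vertical axis) of all 13 member probe sets in INPUT, WASH and ELUTED RNA, with the untested ones marked as below the filter. Each mouse has 1 point, and bars give the means of 3 control (blue) and 3 transgenic (red) mice. For the 10 tested probe sets, every transgenic point in WASH lies above every control point, and transgenic mouse 1 gives the highest value for most genes. This does not hold for the untested probe sets.

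The fibrillar collagens form the tensile fibres of connective tissue. Col3a1, the type III chain, on chromosome 1 (45311538 to 45349706, GRCm38.p6), read 6.94, 7.24 and 7.41 in the INPUT of the control mice and 8.34, 8.49 and 7.33 in that of the transgenic mice. In WASH it read 7.69, 8.02 and 7.77 against 9.40, 8.91 and 8.11, and in ELUTED 6.60, 7.40 and 7.33 against 8.79, 8.25 and 7.71. Transgenic mouse 3 fell within the control range in INPUT, whereas in both tail fractions the genotypes did not overlap. The differences were 0.86 ± 0.28 (SE, n = 3 per genotype) in INPUT, 0.98 ± 0.28 in WASH and 1.14 ± 0.32 in ELUTED, with adjusted p of 0.423, 0.196 and 0.278. Only 1 of the 3 control INPUT values and 2 of the 3 control ELUTED values exceeded the nonspecific control, so those 2 differences rest partly on values near background.

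Col1a1, the first chain of type I collagen, lies on chromosome 11 (94936224 to 94953042). It read 8.72 to 8.96 in control INPUT against 9.19 to 9.42 in transgenic INPUT, a difference of 0.47 ± 0.12 with adjusted p = 0.423. In WASH the control mice read 8.88, 8.93 and 8.98 and the transgenic mice 9.88, 9.84 and 9.15, a difference of 0.69 ± 0.18 with adjusted p = 0.194. Transgenic mice 1 and 2 stood well apart from the controls and mouse 3 only slightly. In ELUTED the ranges overlapped, at 9.09 to 9.41 against 9.26 to 9.92, and the difference was 0.40 ± 0.22 with adjusted p = 0.352, or 0.61 without transgenic mouse 3.

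Among the proteins that bind and organise matrix, decorin (Dcn), a small leucine-rich proteoglycan that sits on collagen fibrils, lies on chromosome 10 (97479500 to 97518163) near Lum. Dcn read 8.07, 8.00 and 8.02 in control INPUT and 8.75, 8.48 and 7.99 in transgenic INPUT. In WASH it read 7.92, 8.17 and 8.10 against 9.29, 8.97 and 8.71, and in ELUTED 8.21, 7.80 and 7.46 against 8.85, 8.65 and 8.29. Transgenic mouse 3 was the lowest of all 6 mice in INPUT, yet above every control mouse in both fractions. The differences were 0.38 ± 0.18 in INPUT, 0.93 ± 0.15 in WASH and 0.78 ± 0.25 in ELUTED, with adjusted p of 0.475, 0.156 and 0.282. The INPUT difference was 0.20 without transgenic mouse 1 and 0.59 without transgenic mouse 3.

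Islr, a secreted leucine-rich repeat protein of mesenchymal cells, on chromosome 9 (58156246 to 58159236), had the largest difference of the members in each preparation. It read 5.80, 5.74 and 5.85 in control INPUT and 7.78, 7.05 and 6.58 in transgenic INPUT. In WASH it read 6.59, 6.40 and 6.55 against 8.37, 8.00 and 7.29, and in ELUTED 5.94, 5.94 and 5.63 against 7.59, 7.32 and 6.63. The control mice lay close together, the transgenic mice were spread out, and the genotypes did not overlap in any preparation. None of the control INPUT values and 1 of the 3 transgenic ones exceeded the nonspecific control, so the fitted INPUT difference of 1.34 ± 0.26 (adjusted p = 0.423) is not an exact size, and no fold is given. In WASH, where all 6 values exceeded it, the difference was 1.38 ± 0.24, or 2.60-fold, with adjusted p = 0.156. In ELUTED, where 1 of 3 control values did, it was 1.34 ± 0.26 with adjusted p = 0.278.

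Matrix Gla protein (Mgp), an inhibitor of calcification made by vascular smooth muscle cells and fibroblasts, lies on chromosome 6 (136872435 to 136875823). It read 8.14, 8.18 and 8.27 in control INPUT against 9.39, 8.87 and 8.51 in transgenic INPUT. In WASH it read 8.40, 8.22 and 8.39 against 9.29, 9.34 and 8.73, and in ELUTED 7.40, 7.82 and 7.35 against 8.43, 8.45 and 8.18. No transgenic value fell into the control range. The differences of 0.72 ± 0.20, 0.78 ± 0.16 and 0.83 ± 0.19 correspond to 1.65-fold, 1.72-fold and 1.78-fold, and had adjusted p of 0.423, 0.156 and 0.278.

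Igf2, on chromosome 7 (142650768 to 142666816), encodes a growth factor that the meninges and choroid plexus release into the cerebrospinal fluid. Its probe set 1448152_PM_at read 9.92, 9.97 and 9.66 in control INPUT against 10.97, 10.78 and 10.03 in transgenic INPUT. In WASH it read 9.94, 10.06 and 9.98 against 11.06, 10.91 and 10.44, and in ELUTED 9.90, 10.03 and 9.96 against 11.23, 10.80 and 10.10. All transgenic values lay above all control values, with mouse 3 closest to the controls each time. The differences were 0.74 ± 0.23, 0.81 ± 0.15 and 0.75 ± 0.28, with adjusted p of 0.423, 0.156 and 0.289. The second probe set, 1415931_PM_at, gave 0.78 ± 0.16 in INPUT and 0.92 ± 0.21 in WASH (adjusted p 0.423 and 0.165). In ELUTED it read 10.61, 9.93 and 10.17 in control against 10.91, 10.66 and 10.15 in transgenic mice, and the difference was 0.34 ± 0.26 with adjusted p = 0.463. Without transgenic mouse 1 the ELUTED differences of the probe sets were 0.49 for 1448152_PM_at and 0.17 for 1415931_PM_at. The latter was 0.55 without transgenic mouse 3, 0.52 without control mouse 1 and 0.18 without control mouse 2. The probe sets thus differed most in the long-tail fraction, where control mouse 1 was high on 1415931_PM_at only.

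Slc6a13, on chromosome 6 (121300288 to 121337721), encodes GAT2, a transporter of GABA and taurine found in leptomeninges. It read 7.03, 7.54 and 7.52 in control INPUT and 8.10, 7.90 and 7.84 in transgenic INPUT, a difference of 0.58 ± 0.16 with adjusted p = 0.423. Here the transgenic mice lay close together, but only 1 of the 3 control values exceeded the nonspecific control. In WASH the control values of 7.87 to 7.98 and the transgenic values of 8.23 to 8.62 were all above it, and the difference was 0.56 ± 0.12 with adjusted p = 0.156. In ELUTED the difference was 0.38 ± 0.16 with adjusted p = 0.3, again without overlap (7.47 to 7.71 against 7.92 to 8.05).

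Ptgds, on chromosome 2 (25466709 to 25470110), encodes the lipocalin-type prostaglandin D synthase, an abundant cerebrospinal fluid protein made by the arachnoid, the choroid plexus and oligodendrocytes. Its probe set 1423859_PM_a_at read 12.38, 12.34 and 12.35 in control INPUT against 12.77, 12.55 and 12.41 in transgenic INPUT, and 12.23, 12.28 and 12.31 against 12.44, 12.36 and 12.50 in WASH. In ELUTED it read 11.57, 11.97 and 11.40 against 12.52, 12.29 and 12.33. The genotypes lay close together in INPUT and WASH and were set apart in ELUTED, where the control mice were lower. The differences were 0.22 ± 0.12, 0.15 ± 0.09 and 0.73 ± 0.20, with adjusted p of 0.505, 0.404 and 0.278. The INPUT difference was 0.12 without transgenic mouse 1. Probe set 1423860_PM_at showed the same order, with 0.18 ± 0.10, 0.13 ± 0.09 and 0.88 ± 0.26.

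**Figure D2:**
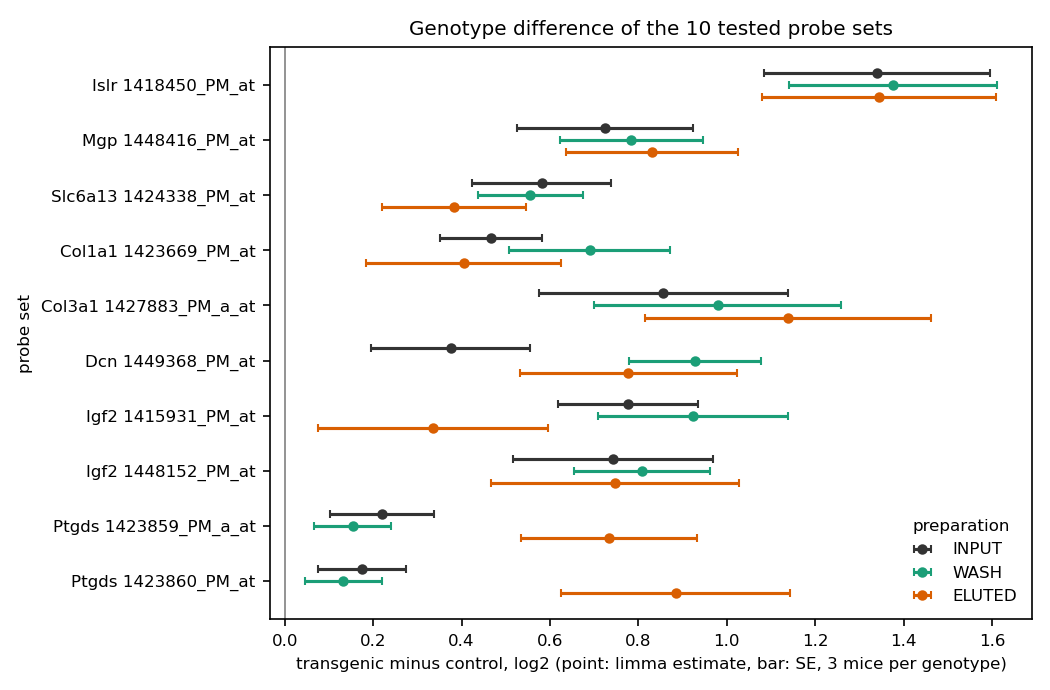
Transgenic minus control difference (log2, horizontal axis) of each tested member probe set in INPUT, WASH and ELUTED, with points for limma's estimate and bars for its SE (3 mice per genotype). Every estimate is above 0, Islr is largest in each preparation, and both Ptgds probe sets are larger in ELUTED than in INPUT or WASH.

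Across the short-tail arrays, all 10 member probe sets were higher in the transgenic mice, by 0.13 to 1.38, against 52.6% of all probe sets, and in all 10 the genotypes did not overlap, against 14.1% of all probe sets with all transgenic mice above all control mice. Across the long-tail arrays all 10 were higher, by 0.34 to 1.34, against 50.9%, and 8 of 10 did not overlap, also against 14.1%. No member passed the adjusted threshold in either fraction, and 0% of all probe sets did. At an unadjusted p under 0.05, limma listed 8 of 10 members in WASH, against 16.5% of all probe sets, and 8 of 10 in ELUTED, also against 16.5%. The median over the 8 genes was 0.80 in WASH and 0.76 in ELUTED. The INPUT, WASH and ELUTED arrays of a mouse come from 1 dissection, so the preparations do not repeat the comparison on other animals.

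The transgenic mice were not alike. Relative to the control mean, the median of the 8 genes in INPUT was 0.93 in transgenic mouse 1, 0.62 in mouse 2 and 0.24 in mouse 3, whereas the control mice lay between -0.02 and 0.06. In WASH these medians were 1.01, 0.91 and 0.35, and in ELUTED 0.97, 0.84 and 0.53. Mouse 1 had the highest value of all 6 mice for 6 of 8 genes in INPUT, 6 in WASH and 7 in ELUTED. Mouse 3 was the transgenic mouse nearest to the controls by this median in each preparation.

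Leaving out a mouse changed the calls. Without transgenic mouse 3, limma called 7 of the 8 member genes higher in WASH (all but Ptgds), against 1.46% of all genes. Their adjusted p ran from 0.0158 for Islr, Col1a1 and Igf2 to 0.0329 for Slc6a13. Without control mouse 2, it called Islr, Mgp and Ptgds higher in ELUTED, against 9.5% of all genes. Without transgenic mouse 1, no member was called in INPUT, WASH or ELUTED, but the medians kept their sign, at 0.50 in INPUT, 0.68 in WASH and 0.66 in ELUTED. A single fit over the 18 arrays with mouse as a random block called 6 of the 8 member genes in ELUTED (Islr, Mgp, Col3a1, Dcn, Igf2 and Ptgds), against 16.1% of all genes called higher. That fit pooled the spread of the preparations and used 1 within-mouse correlation, 0.158, for all probe sets. It therefore treated the 3 arrays of a mouse as nearly independent, though they come from 1 dissection.

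The wider fibroblast programme was read through fixed lists, and no gene on them passed the adjusted threshold in INPUT, WASH or ELUTED. These lists also hold members, so their counts partly repeat those above. The collagen list includes Col1a1 and Col3a1, the growth factor list Igf2, and the transporter list Slc6a13 and Ptgds. Over all 11974 genes, 57.1% were higher in transgenic INPUT, and in 13.2% all transgenic mice lay above all control mice. Among small leucine-rich proteoglycans and fibroblast matrix genes, 11 of 12 were higher in INPUT and 6 did not overlap, with a median of 0.54. These 12 include 3 members. In WASH 12 of 12 were higher, against 56.3% of all genes, and 9 did not overlap, against 16.1%, with a median of 0.74. In ELUTED 10 of 12 were higher, against 56.6%, and 8 did not overlap, against 18.2%, with a median of 0.56. Fibronectin (Fn1) gave 0.93 ± 0.27, prolargin (Prelp), a proteoglycan that anchors basement membranes, 0.64 ± 0.20, and fibulin 1 (Fbln1) 0.53 ± 0.17, each with adjusted p = 0.423. Without transgenic mouse 1, Prelp gave 0.42. Osteoglycin (Ogn) gave 0.64 ± 0.21 on values that did not exceed the nonspecific control in INPUT.

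The wider collagen family differed by preparation. In INPUT 12 of 17 were higher and 5 did not overlap, with a median of 0.11, but 5 of the 17 exceeded the nonspecific control on no INPUT array. In WASH, where all 17 exceeded it on every array, 13 were higher and 11 did not overlap, with a median of 0.31. In ELUTED 7 of 17 were higher and 1 did not overlap in that direction, with a median of -0.05. Col6a1 and Col6a2, chains of the beaded type VI collagen, gave 0.38 ± 0.12 and 0.68 ± 0.20 in INPUT (both adjusted p = 0.423). Col4a1, of the vascular basement membrane, gave 0.21 ± 0.13 (adjusted p = 0.547), or 0.11 without control mouse 3 and 0.12 without transgenic mouse 1. Among enzymes and chaperones that fold, modify or cleave collagen, 18 of 20 were higher in INPUT and 6 did not overlap, with a median of 0.24. Ppib, the cyclophilin B that helps collagen fold, gave 0.45 ± 0.10, and Plod3, a lysyl hydroxylase, 0.32 ± 0.11 (adjusted p 0.423 and 0.426).

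In the insulin-like growth factor system, 9 of 11 genes were higher in INPUT and 3 did not overlap, with a median of 0.32. The binding proteins Igfbp5 and Igfbp2 gave 1.04 ± 0.29 and 0.52 ± 0.27, and Igf1 gave 0.37 ± 0.18 (adjusted p 0.423, 0.494 and 0.482). Without transgenic mouse 1 these values were 0.70, 0.17 and 0.15. Only 1 transgenic INPUT value of Igfbp5 exceeded the nonspecific control. Among meningeal transporters and genes of retinoid, prostaglandin and BMP signalling, 15 of 17 were higher in INPUT and 9 did not overlap, with a median of 0.24. Crabp2, which carries retinoic acid to its receptors, gave 0.47 ± 0.11, Bmp6 gave 0.73 ± 0.22, and Aldh1a2, which makes retinoic acid in the meninges, gave 0.75 ± 0.22 with 1 of 6 INPUT values above the nonspecific control (each adjusted p = 0.423). Among transcription factors and other markers of meningeal fibroblasts, 8 of 11 were higher and 3 did not overlap, with a median of 0.14, and 5 of these 11 exceeded the nonspecific control on no INPUT array.

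The genes most like the members over the 18 arrays were sought by the root mean square distance between a gene's centred log2 profile and the mean centred profile of the 8 members, over 11966 other genes. The nearest were Scpep1 at 0.14, Pth1r at 0.16, Plp2 at 0.16, Cnn2 at 0.17 and Aldh1a2 at 0.17. Single members lay between 0.16 (Dcn) and 0.38 (Islr) from that mean, which contains them. Scpep1, a serine carboxypeptidase, gave transgenic minus control differences of 0.61, 0.51 and 0.65 in INPUT, WASH and ELUTED, with adjusted p of 0.423, 0.224 and 0.278. Pth1r, the receptor for parathyroid hormone, gave 0.56, 0.53 and 0.67. Without transgenic mouse 1, Scpep1 gave 0.32 in WASH and Pth1r 0.33 in INPUT. Aldh1a2 gave 0.75, 0.90 and 0.80. This is a description of likeness, and these genes were picked for it.

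How the tissue was cut could change the share of lining cells, neurons and neighbouring tissue, so markers of these were read beside the members. Striatal neuron genes were lower in 12 of 15 cases in transgenic INPUT, and in 7 of 15 all transgenic mice lay below all control mice, against 6.63% of all genes. Their mean log2 level was 9.06, 9.16 and 9.13 in control mice and 8.87, 8.79 and 8.98 in transgenic mice. Rgs9, a G protein regulator of medium spiny neurons, gave -0.55 ± 0.12 in INPUT (adjusted p = 0.423), -0.26 in WASH and -0.97 in ELUTED. Drd1, a further striatal marker, overlapped in INPUT and gave -0.18, -0.04 and 0.37 in these preparations. Drd2 gave -0.49, -0.38 and -0.28, but only 1 of its INPUT values exceeded the nonspecific control. The striatal mean ran from 9.14 to 9.22 in control WASH against 8.97 to 9.13 in transgenic WASH. In ELUTED it overlapped, at 9.05 to 9.09 against 8.79 to 9.14. The INPUT mean of 14 cortical neuron genes overlapped, at 9.37, 9.31 and 9.19 against 8.97, 9.36 and 9.30. That of 13 genes of neighbouring regions also overlapped, at 7.79 to 7.90 against 7.86 to 7.87. In INPUT, transgenic mouse 1, which had the highest member median, had the lowest cortical mean, and transgenic mouse 2 had the lowest striatal mean.

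**Figure D3:**
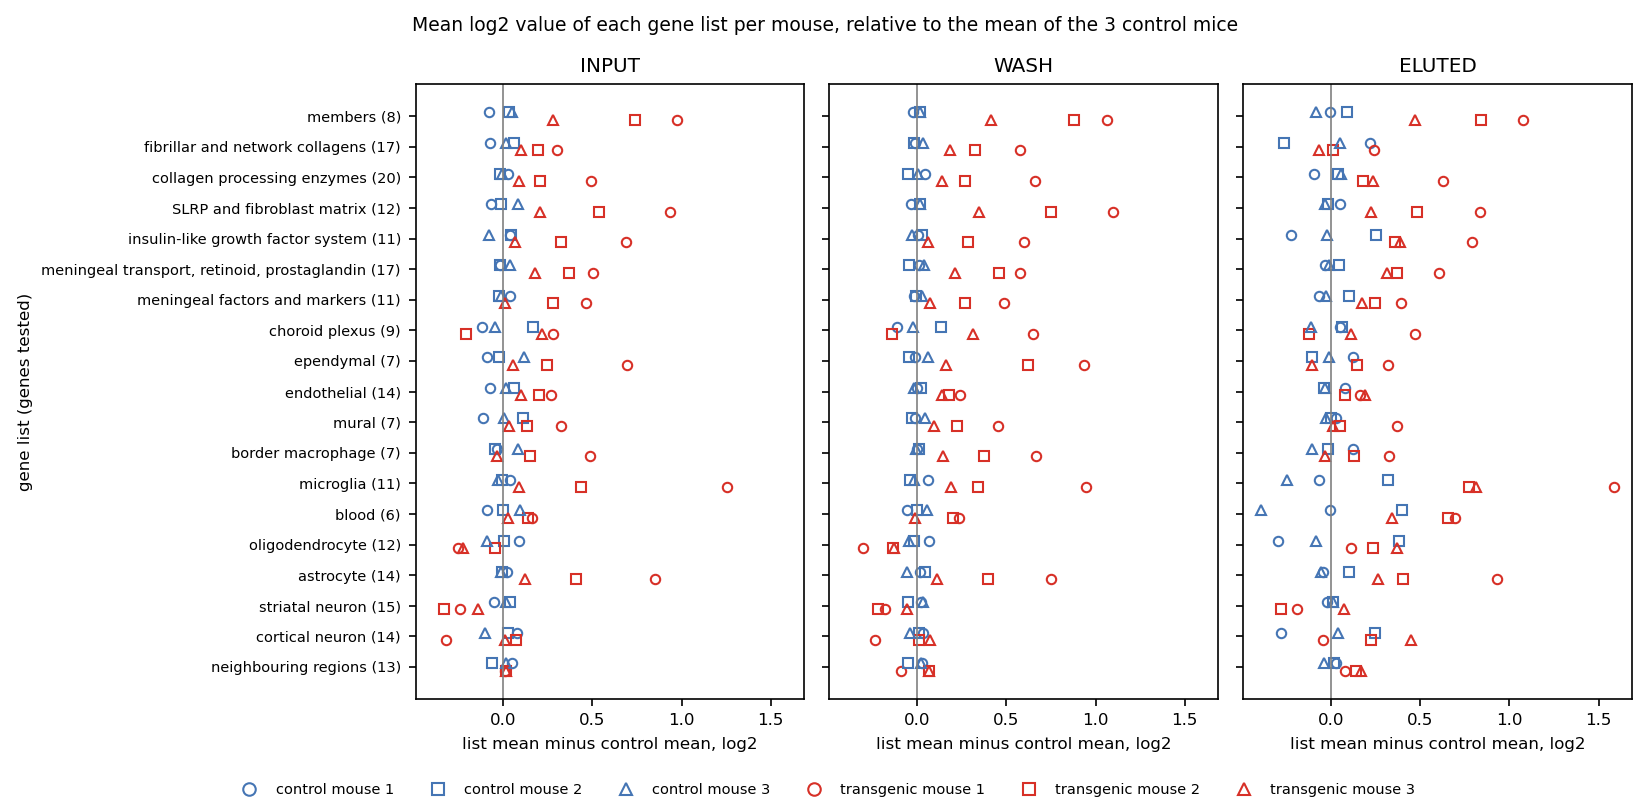
Mean log2 value of each gene list per mouse, relative to the mean of the 3 control mice (horizontal axis), in INPUT, WASH and ELUTED, with 1 point per mouse and the number of tested genes beside each list name. In INPUT the striatal points of all transgenic mice lie below those of the control mice, and for the members, microglia and astrocytes transgenic mouse 1 lies farthest right and mouse 3 nearest to the controls.

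The choroid plexus, which also makes Igf2 and Ptgds, was read through Ttr, its most abundant transcript. Ttr in INPUT was 9.28, 10.66 and 9.61 in control mice and 12.05, 8.81 and 11.38 in transgenic mice. Transgenic mouse 1 had the highest Ttr and the highest member median. Transgenic mouse 2 had the lowest Ttr of all 6 mice and a member median 0.62 above the control mean. Transgenic mouse 3 had high Ttr and the lowest member median of the transgenic mice. The part of the choroid plexus in the members' differences was not tested. Of the other defining markers, Kl and Folr1 were not bright enough to be tested. Kcnj13 read 5.94 to 6.18 against 6.45 to 7.30 in INPUT, below the nonspecific control. In WASH it read 5.89 to 6.03 against 6.31 to 7.05, all above that control. Of 9 choroid plexus genes tested, 4 were higher in INPUT, but 6 of the 9 exceeded the nonspecific control on no INPUT array. Their INPUT mean ran from 6.76 to 7.05 in control mice and from 6.67 to 7.16 in transgenic mice. In WASH, where 8 of 9 exceeded it on all arrays, 5 were higher, against 56.3% of all genes. There 3 did not overlap, against 16.1%, and the median was 0.22. In ELUTED 3 of 9 were higher, with a median of -0.13.

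Markers of cells that share the meninges and vessels had smaller medians in INPUT than the 0.65 of the members, and microglial genes a like one. Of all genes, 57.1% were higher in INPUT and 13.2% had all transgenic mice above all control mice. In WASH these shares were 56.3% and 16.1%. The median INPUT difference was 0.18 for 14 endothelial genes (12 higher, 3 without overlap), 0.16 for 7 mural genes (5 higher, 1 without overlap) and 0.23 for 7 border macrophage genes (6 higher, 1 without overlap), of which 5 exceeded the nonspecific control on no INPUT array. In WASH, where 6 of the 7 exceeded it on all arrays, border macrophage genes had a median of 0.37 (7 higher, 3 without overlap), beside 0.21 for endothelial genes (12 higher, 6 without overlap), 0.29 for mural genes (6 higher, 3 without overlap) and 0.80 for the members. Their mean INPUT levels ran from 7.81 to 7.94 against 7.99 to 8.15 for endothelial genes, from 8.02 to 8.24 against 8.17 to 8.46 for mural genes and from 6.60 to 6.72 against 6.61 to 7.13 for border macrophages. Mrc1, a defining macrophage marker, read in INPUT 6.57, 6.69 and 6.61 in control mice and 7.92, 7.22 and 6.37 in transgenic mice, and 5 of these 6 values did not exceed the nonspecific control. Lyve1, another such marker, read 6.52, 6.40 and 6.57 against 6.45, 6.57 and 6.57, all below that control, and Cd163 was not bright enough to be tested. Microglial genes had an INPUT median of 0.66 (9 of 11 higher, 5 without overlap), with means of 8.57, 8.53 and 8.51 against 9.79, 8.97 and 8.62. Their median was 0.53 in WASH and 1.08 in ELUTED, beside 0.80 and 0.76 for the members. In ELUTED 6 of the 11 exceeded the nonspecific control on all 6 arrays. Astrocyte genes had an INPUT median of 0.35 (13 of 14 higher, 6 without overlap), with means of 9.60, 9.57 and 9.57 against 10.43, 9.99 and 9.70. In both glial lists the transgenic mice ranked in INPUT as they did for the members, with mouse 1 highest and mouse 3 lowest. The INPUT means of the endothelial, mural, border macrophage, ependymal, blood and fibroblast lists had this order too, and those of the choroid plexus, oligodendrocyte, striatal, cortical and neighbouring region lists did not.

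Haemoglobin and other blood genes had a median of 0.22 (4 of 6 higher), with means of 8.85 to 9.04 against 8.97 to 9.10. Oligodendrocyte genes had a median of -0.12 (2 of 12 higher), with means of 9.79 to 9.98 against 9.63 to 9.84. In ELUTED 8 of the 12 were higher, with a median of 0.23. Their tail ratio was higher in transgenic mice for 10 of 12, against 52.6% of all genes, with a median of 0.51 and with all transgenic mice above all control mice for 5, against 11.9%. This was not particular to oligodendrocytes, since it was also higher for 9 of 11 microglial and 10 of 14 cortical neuron genes. Other lists went the other way, with 6 of 7 ependymal and 7 of 7 border macrophage genes lower, against 47.4% of all genes. In each of these 2 lists only 1 of 7 genes exceeded the nonspecific control on all 6 ELUTED arrays. Their tail ratios thus rest partly on values near background. Ptgds, which oligodendrocytes also express, had tail ratio differences of 0.58 and 0.75 on its probe sets, and the part of oligodendrocytes in them was not tested. Ependymal genes had a median of 0.34 (7 of 7 higher, 1 without overlap), but 5 of the 7 exceeded the nonspecific control on no INPUT array. In WASH, where 6 of 7 exceeded it on all arrays, their median was 0.40 (6 higher, 5 without overlap). The part of dissection, of lining cells left on the tissue and of glial content in the members' differences was not tested, and an altered share of meninges cannot be told apart here from altered expression within meningeal cells.

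Tail state was read within each mouse as the log2 ELUTED value minus the log2 WASH value, called the tail ratio, where a higher value means a larger share of the long-tail fraction. In control mice limma called 5 member probe sets lower (Islr, Mgp, Col3a1 and both of Ptgds) and 2 higher (Col1a1 and Igf2 1415931_PM_at) at an adjusted p under 0.05. Of all probe sets, 35.4% were called lower and 27.6% higher, so calls in both directions were common. The median of the 8 member genes was -0.47, against -0.18 over all genes. Under other filters and scalings it lay between -0.302 and -0.272.

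Islr had control tail ratios of -0.65, -0.46 and -0.92, a mean of -0.67 ± 0.13 (SE, adjusted p = 0.00328), and Mgp had -0.999, -0.40 and -1.04, a mean of -0.81 ± 0.16 (adjusted p = 0.00349). Col3a1 had -1.09, -0.62 and -0.43, a mean of -0.72 ± 0.15 (adjusted p = 0.00484). For these genes all 3 control mice agreed in sign, although 2 of the 3 Islr and 1 of the 3 Col3a1 ELUTED values did not exceed the nonspecific control. Col1a1 went the other way, at 0.53, 0.15 and 0.30, a mean of 0.33 ± 0.13 (adjusted p = 0.0492), so the fibrillar collagens were split between the fractions. Leaving out control mouse 1 or 3, or any transgenic mouse (which enters the shared spread), ended the call for Col1a1. Of all 17 collagens tested, 11 exceeded the nonspecific control on all 6 ELUTED arrays, and the tail ratios of the others rest partly on values near background. Among the 17, 8 were called higher and 1 lower in control mice, against 20.5% and 39.9% of all genes. In transgenic mice none was called higher and 1 lower, against 6.5% and 20.5%, with a median of 0.01. The genotype difference was below 0 for 15 of the 17, against 47.4% of all genes, with a median of -0.36. All transgenic mice lay below all control mice for 6, against 7.36%, and none passed the adjusted threshold. The mean tail ratio of the 17 was 0.49, 0.01 and 0.28 in control mice and -0.08, -0.05 and 0.01 in transgenic mice. Control mouse 2 and transgenic mouse 3 thus lay together. Control mouse 1 was highest, and its ELUTED array had the brightest nonspecific control of the ELUTED arrays, at 7.30.

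In transgenic mice limma called Islr, Mgp, Slc6a13 and Col3a1 lower and no member higher, where 19.1% of all probe sets were called lower and 12.7% higher. Islr had -0.78, -0.67 and -0.66, a mean of -0.71 ± 0.13 (adjusted p = 0.00855), and Mgp -0.87, -0.89 and -0.54, a mean of -0.77 ± 0.16 (adjusted p = 0.0121). Slc6a13 had -0.57, -0.64 and -0.22 (mean -0.47 ± 0.13, adjusted p = 0.0293), against -0.27, -0.40 and -0.23 in control mice (mean -0.30 ± 0.13, adjusted p = 0.0744). Col3a1 averaged -0.56 ± 0.15 (adjusted p = 0.0286). Without transgenic mouse 1, or without mouse 2, none of these calls was made, and 0 probe sets were called in all. With all mice, Islr, Mgp and Col3a1 were called lower in the long-tail fraction in both genotypes. Quantile normalization of the arrays again kept their sign but ended the transgenic calls of Mgp (adjusted p = 0.072), Col3a1 (0.241) and Slc6a13 (0.25).

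**Figure D4:**
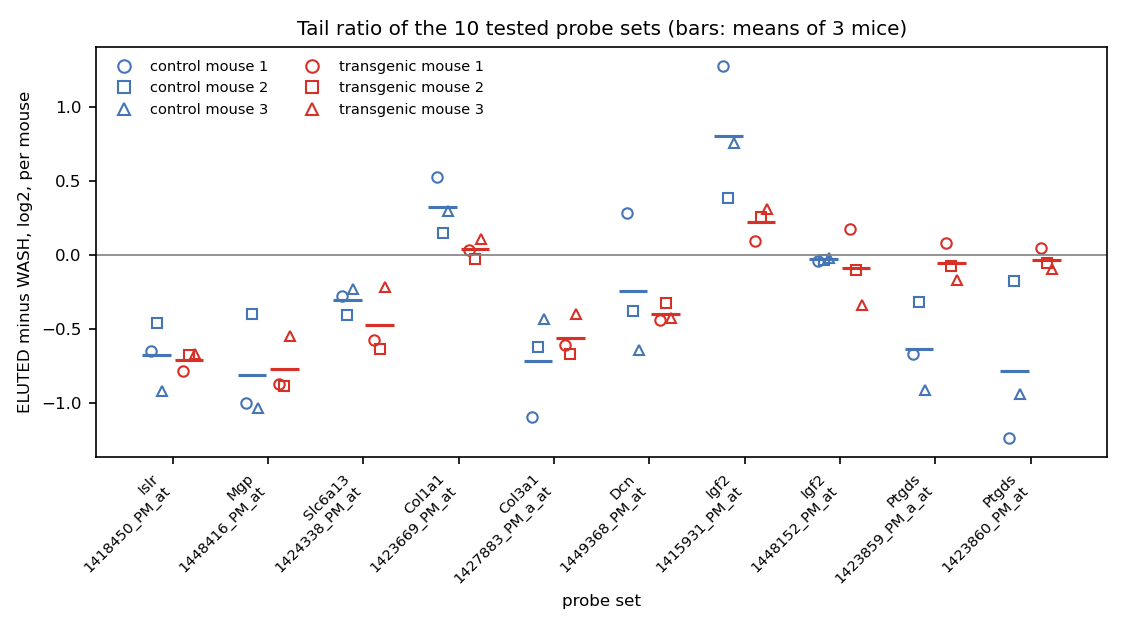
ELUTED minus WASH (log2, vertical axis) of each tested member probe set per mouse, with bars for the means of 3 control (blue) and 3 transgenic (red) mice. Ptgds lies below 0 in every control mouse and near 0 in the transgenic mice, Igf2 1415931_PM_at lies higher in control mice, Col1a1 separates the genotypes by a small gap, and the other members overlap.

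The genotypes were then compared for the tail ratio itself. No member passed the adjusted threshold, 0% of all probe sets did, and 3 of 10 member probe sets had an unadjusted p under 0.05, against 13.4% of all. The Ptgds probe set 1423859_PM_a_at had -0.67, -0.32 and -0.91 in control mice and 0.08, -0.07 and -0.16 in transgenic mice, and 1423860_PM_at had -1.24, -0.17 and -0.94 against 0.05, -0.05 and -0.09. All transgenic mice lay above all control mice on both, as in 9.66% of all probe sets, with differences of 0.58 ± 0.20 and 0.75 ± 0.27 (adjusted p = 0.371 for each). Control mouse 2 lay closest to the transgenic mice, and without it the differences were 0.74 and 1.06, with adjusted p of 0.0581 and 0.0213. That fit called 7.25% of all probe sets higher.

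Igf2 on 1415931_PM_at had 1.28, 0.39 and 0.76 in control mice and 0.10, 0.26 and 0.31 in transgenic mice, a difference of -0.59 ± 0.24 (adjusted p = 0.371). On 1448152_PM_at it had -0.04, -0.03 and -0.01 against 0.18, -0.10 and -0.34, a difference of -0.06 ± 0.19 (adjusted p = 0.884). The probe sets of this gene therefore disagree on its tail ratio in control mice, and no single tail state can be given for Igf2. Col1a1 had 0.53, 0.15 and 0.30 against 0.04, -0.02 and 0.11, with all transgenic mice below all control mice, as in 8.57% of all probe sets, and a difference of -0.28 ± 0.18 (adjusted p = 0.46). Dcn had 0.29, -0.37 and -0.64 against -0.44, -0.32 and -0.42, a difference of -0.15 ± 0.25 (adjusted p = 0.777), with the spread all in the control mice. For Islr, Mgp, Slc6a13 and Col3a1 the differences lay between -0.17 and 0.16, with SE from 0.19 to 0.23.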

How the data were processed

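Per the submitters' processing notes, the authors made the deposited log2 values with RMA, which corrects background, makes array distributions alike and summarises probes. Both its version and the set of arrays normalised jointly were not given in the sources used here. Such values hide any shift common to most transcripts. The design text names another array than the one whose probe set names and annotation the table carries. The latter were used. Arrays carry no depth, and 3 mice per genotype limit the precision.

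Of 45141 probe sets, 104 controls were left out, and probe sets with a mean over 18 arrays above the 40th percentile (5.95) were kept. The annotation gave 1 gene to 28898 probe sets, several to 551 and none to 15588. No array repeated the values of another. limma 3.58.1 in R 4.3.3 (statmod 1.5.0) was fitted per preparation and to ELUTED minus WASH per mouse, with Benjamini-Hochberg adjustment over all kept probe sets and a two-sided threshold of 0.05. It was tested on simulated data. Gene counts used the probe set with the highest mean. WASH and ELUTED were paired by mouse, as the labels give. Replicate numbers name different mice in the genotypes and did not pair them (correlations of deviations from -0.20 to 0.26 over the preparations and 0.36, -0.31 and 0.27 for the tail ratios). Mice are taken as independent.

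Named genes were all members, up to 4 genes per list with the smallest p in INPUT (some are summarised by counts), and the 5 genes most like the members. The members and lists were chosen with earlier results of these data known. Alternatives were other filters, scalings, probe set rules, blocks and leaving out each mouse.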

Additional observations from a re-analysis of the deposited data

How the results depend on the processing

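In INPUT no alternative gave any call, and for every preparation the median difference of the members stayed above 0 throughout. Leaving out 1 mouse at a time, that median ran from 0.498 to 0.783 in INPUT, 0.682 to 0.985 in WASH and 0.657 to 0.923 in ELUTED. The median tail ratio ran from -0.517 to -0.416 in control mice, from -0.491 to -0.399 in transgenic mice and from -0.101 to 0.00727 for the difference. Calls ran from 0 to 359 probe sets (0 to 185 genes, 0 to 7 members) in WASH, from 0 to 2319 (0 to 1222 genes, 0 to 3 members) in ELUTED and from 0 to 2487 (0 to 1249 genes) for the difference in tail ratio. For the tail ratio they ran from 13108 to 16944 (5385 to 7195 genes, 4 to 5 members) in control mice, against 17034 with all mice, and from 0 to 13560 (0 to 5468 genes, 0 to 5 members) in transgenic mice, against 8601. Dropping a mouse removes samples from both the mean and the shared spread, and beyond that the cause was not tested.

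The members' median tail ratio in control mice was -0.272 without a filter, -0.302 with the 60th percentile filter, -0.292 after quantile normalization again and -0.275 with arrays centred on their median. In transgenic mice it was -0.300 without a filter, -0.167 after quantile normalization and -0.256 with centring. These scalings moved the median tail ratio of all probe sets from -0.07 to 0.08 and 0.12 in control mice and from -0.11 to 0.01 and 0.07 in transgenic mice. In WASH, 5 probe sets were called with the stricter filter, 2 after quantile normalization and 2 with centring, and 1 gene under each of these and with the mean of a gene's probe sets, none of them a member. The tail ratio in transgenic mice gave 4612 probe sets (1960 genes) with the stricter filter and 4986 (1636 genes) after quantile normalization. Member genes called numbered 3 in control mice with the stricter filter, which keeps 7 of them, and in transgenic mice 1 after quantile normalization and 2 with centring. The random block over 18 arrays called 4677 probe sets, 2303 genes and 6 members in ELUTED.

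With replicate number as a replicate block, the genotype comparisons gave 0 calls, as without it. Without the block that pairs the fractions of a mouse, 2 member genes were called in control mice and 2 in transgenic mice, and the adjusted p was 0.0501 for Islr and 0.0841 for Col3a1 in control mice.

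Signs turned only for tail ratios that had not passed the test. In control mice Igf2 1448152_PM_at became 0.357 after quantile normalization and 0.164 with centring, and Dcn 0.0245 after quantile normalization. In transgenic mice Igf2 1448152_PM_at became 0.0593 and 0.0899 under these scalings, and ran from -0.22 to 0.038 with 1 mouse left out. With centring the Ptgds probe sets became 0.127 and 0.146, and 1423859_PM_a_at ran from -0.117 to 0.0064 with 1 mouse left out. For the genotype difference, Islr became 0.309 after quantile normalization. With 1 mouse left out that difference ran from -0.155 to 0.0769 for Islr, from -0.0293 to 0.302 for Col3a1, from -0.0662 to 0.252 for Mgp, from -0.351 to 0.113 for Dcn and from -0.193 to 0.065 for Igf2 1448152_PM_at.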
